A study of Homo sapiens with 15 samples.

Results

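Doxorubicin was held on CAL51 cells for 24 h or for 48 h, and the change between those times was measured in 3 arrays of each. These 6 arrays were chosen by their labels, out of 15 in the series. CAL51 is an established breast cancer line; both groups were grown in low-glucose medium with foetal calf serum and received 0.4 µM doxorubicin from 50% confluency. The 3 arrays of untreated CAL51 gave the starting level. The other 6 arrays are of CALDOX, the doxorubicin-resistant line made from CAL51, untreated or in 4 µM drug for 24 h. They entered only the shared estimate of the spread and the choice of the probe set that stands for a gene. Each condition had 3 independent cultures of the 1 line, per the labels. The labels name no untreated culture of 48 h and do not say when the untreated cells were taken. A longer time in drug and a longer time in culture therefore cannot be told apart. Total RNA was hybridized to Affymetrix arrays, and every value below is a log2 intensity of the deposited table, made with RMA, which forces all arrays to the same distribution.

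Doxorubicin is an anthracycline that inserts into DNA and traps topoisomerase II on broken strands. Double-strand breaks activate ATM and p53, and p53 raises CDKN1A (p21), which holds the cell cycle kinases back; the RB family proteins p107 and p130 then repress E2F genes of DNA replication and, through the DREAM complex, genes of mitosis. Other programmes are followed below: immediate-early transcription factors, the ATF4 response to amino acid shortage and the sterol response of the SREBP factors. The unfolded protein response of the endoplasmic reticulum is another.

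The labelled cell type was checked first. KRT8, KRT18 and EPCAM, keratins and an adhesion protein of epithelial cells, read at least 12.89, 14.22 and 11.88 on each of the 6 arrays. ESR1, PGR and ERBB2, the receptors that a triple-negative tumour lacks, had means of 8.29, 6.16 and 9.88 at 24 h and of 8.32, 6.11 and 9.92 at 48 h; these values have no scale on which absence can be read. The 9 fibroblast, 8 blood cell and 8 endothelial markers averaged 6.82 to 7.04, 6.62 to 6.75 and 6.46 to 6.58 on the 24 h arrays and 6.89 to 7.02, 6.71 to 6.83 and 6.48 to 6.61 on the 48 h arrays. In each of the 3 lists 6 genes lay below the all-gene median of 7.77, no marker reads 0 on this scale, and 1 fibroblast marker, PDGFRB (0.38 ± 0.09 from 24 h to 48 h), and 1 blood cell marker, TYROBP (0.47 ± 0.13), were called higher, PDGFRB not without 24 h array 1 or 48 h array 1 and TYROBP not without 24 h array 1, 24 h array 3 or 48 h array 1. Array correlations were 0.9929 to 0.9972 within a time and 0.9913 to 0.9958 between the times. The SD over all probe sets ran from 1.937 (24 h array 2) to 2.005 (24 h array 3), which enclosed the 1.942 to 1.992 of the 48 h arrays.

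Between 24 h and 48 h, 1920 of 19775 genes (9.71%) changed at an adjusted p under 0.05 by limma, 864 higher (4.37%) and 1056 lower (5.34%). The steps were small: 60 of the higher and 37 of the lower genes passed 1.5-fold, and FOS and EPAS1 alone passed 2-fold. In 4564 genes (23.1%) the 24 h and 48 h values did not overlap, and 1885 of the 1920 called genes were among them. For comparison, 1999 genes (10.1%) had changed at 24 h against untreated cells, 41 of the higher ones by at least 2-fold, and 4277 (21.6%) had changed at 48 h against untreated cells. Without 48 h array 1 the count between the times fell to 1236, and the lower calls fell to 627, 655 and 682 without 48 h array 2, 48 h array 1 and 24 h array 3. In bulk RNA a changed share of cells in a given state and a changed level in each cell cannot be told apart.

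The 12 highest and 12 lowest genes were taken from called genes whose 24 h and 48 h arrays did not overlap. For these genes the lack of overlap, here and below, was fixed by that choice. The largest rise was that of FOS, an immediate-early transcription factor of the AP-1 complex. Its values were 9.20, 9.14 and 9.13 in the untreated arrays (replicates 1 to 3, here and below), 9.81, 9.86 and 9.90 at 24 h and 11.09, 11.04 and 11.10 at 48 h. All 48 h arrays lay above all 24 h arrays, a difference of 1.22 ± 0.05 (log2 fold change ± limma standard error, n = 3 arrays a group; 2.32-fold; adjusted p = 4e-09). EPAS1, the hypoxia factor HIF-2α, read 7.81, 7.84 and 7.76 at 24 h and 8.89, 8.98 and 8.61 at 48 h, a difference of 1.02 ± 0.11 (2.02-fold; adjusted p = 6e-05). Both had already risen at 24 h, by 0.70 and 0.63. The water channel AQP1 had not: it read 9.73, 9.73 and 9.70 untreated, 9.64, 9.41 and 9.52 at 24 h and 10.45, 10.53 and 10.45 at 48 h (0.95 ± 0.10; adjusted p = 4.7e-05). Another AQP1 probe set, almost as bright (9.34 against 9.36), rose by 1.17. Dimmer EPAS1 probe sets (means of 5.97 and 5.65 against 7.55) differed by 0.18 and 0.06 and were not called. HLA-DMA, a class II peptide-loading chain, rose by 0.95 ± 0.10, and SOST, the secreted Wnt antagonist sclerostin, by 0.93 ± 0.11. XG, the Xg blood group glycoprotein, rose by 0.92 ± 0.14, the stress protein gene NUPR1 by 0.91 ± 0.08, the mitochondrial acyl-CoA synthetase gene ACSM3 by 0.89 ± 0.08 and the neutrophil chemokine CXCL2 by 0.85 ± 0.10. GDF15, a secreted stress factor, KRT19 and the epithelial cadherin CDH1 complete the 12 genes with the largest rise, at 0.81 ± 0.07, 0.80 ± 0.07 and 0.80 ± 0.15. Dimmer probe sets of CXCL2 (0.02 and -0.01), GDF15 (0.19 and 0.13) and CDH1 (0.30) were not called. A dimmer one of ACSM3 was called higher (0.65).

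The lowest genes included several of DNA replication and repair. MCM8, a helicase of recombination repair, fell most: 8.35, 8.18 and 8.62 at 24 h and 7.35, 7.22 and 7.77 at 48 h, -0.94 ± 0.14 (1.91-fold lower; adjusted p = 0.00048), from an untreated level of 8.53, 8.34 and 8.30. As the choice of these genes required, the 3 later values lay below every earlier one. CCNE2, the S-phase cyclin E2, fell by 0.70 ± 0.11, and POLE2, a subunit of DNA polymerase epsilon, from 9.52, 9.55 and 9.53 to 8.76, 8.86 and 8.94 (-0.68 ± 0.06; adjusted p = 7.6e-06). RFWD3, a ubiquitin ligase of replication fork repair, fell by 0.68 ± 0.09, and CIP2A, an inhibitor of the phosphatase PP2A, by 0.66 ± 0.07. Also among the 12 lowest were RTKN2 (-0.86 ± 0.18), the noncoding DLEU2 (-0.81 ± 0.11), the zinc finger genes ZNF280C (-0.66 ± 0.11) and ZNF566 (-0.65 ± 0.14), the receptor tyrosine kinase AXL (-0.66 ± 0.08), LOC100190986 (-0.72 ± 0.06) and GTF2H2B (-0.72 ± 0.11), whose near-identical copies make its probe set's source uncertain. EGFR had a difference of -0.78 ± 0.30 and was not called (adjusted p = 0.13); its values were 9.56, 10.20 and 8.84 at 24 h and 8.36, 9.10 and 8.79 at 48 h, and it was called lower without 24 h array 3. Of its 8 other probe sets, 1 differed by -0.73 and 7 by -0.22 to 0.04, and none was called.

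**Figure D1:**
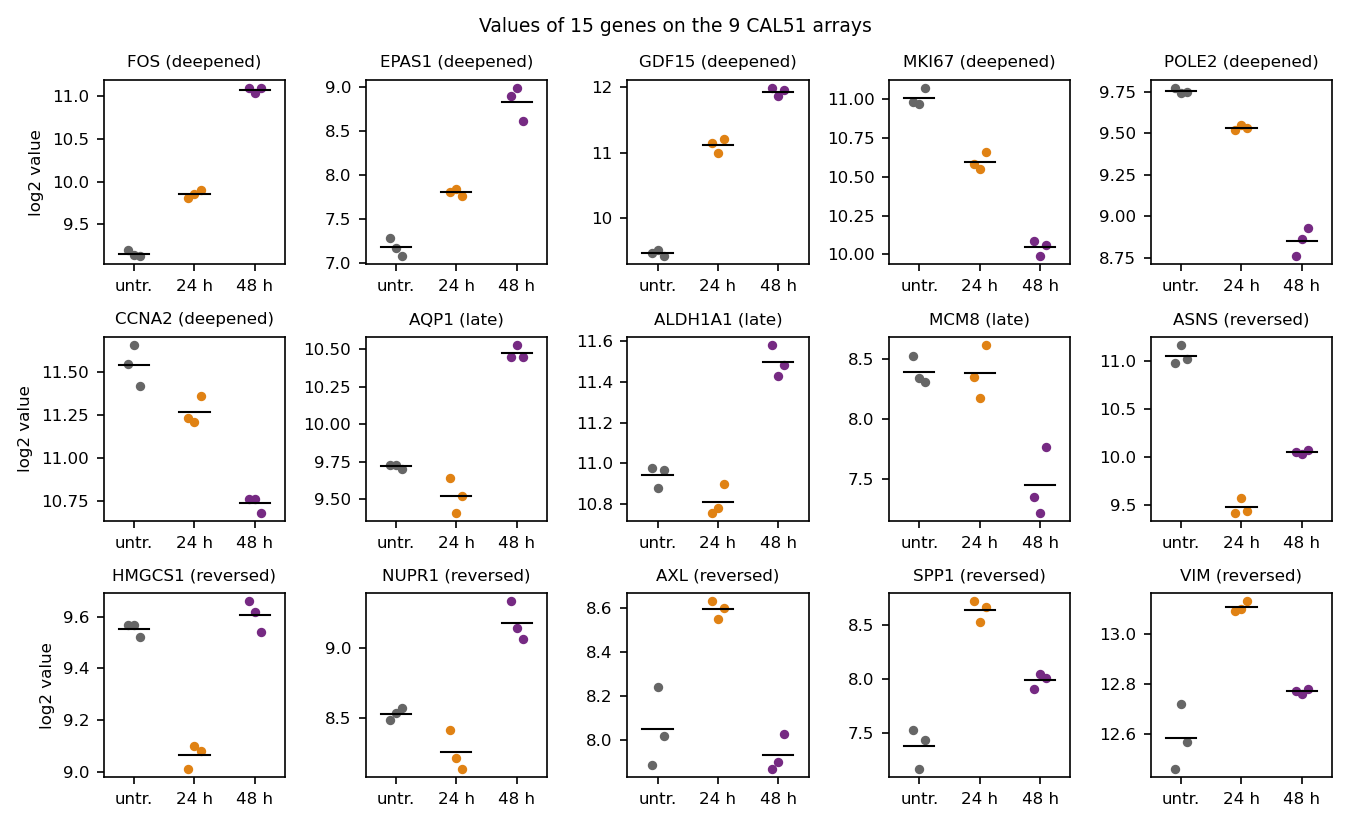
Log2 values of 15 genes on the 9 CAL51 arrays (points), with the mean of each group as a bar; the vertical axes differ between panels and do not start at 0. The top row and CCNA2 hold genes that moved the same way at both steps. POLE2 and CCNA2 kept that class in 5 of 9 fits that left out an array. AQP1, ALDH1A1 and MCM8 moved after 24 h. The last 6 panels turned back, HMGCS1 from 9.06 to 9.61 against an untreated mean of 9.55.

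The 1920 genes were sorted by their course. A gene deepened when it had been called at 24 h and was called again in the same direction, and it reversed when it was called again in the opposite direction. A gene was late when it was not called at 24 h, was called from 24 h to 48 h, and its later step also differed from its first in a test of the difference between the steps (640 genes called in all, 3.24%: 229 with a higher and 411 with a lower later step). The 24 h arrays enter both steps with opposite signs, so an error in them makes a reversal, a late start or a called difference between the steps more likely; this holds for each such difference below. By these rules 388 genes deepened (247 higher, 141 lower), 164 were late (58 higher, 106 lower), 185 reversed (74 fell and then rose, 111 rose and then fell), and 1183 met none of them. Seen from the first step, 19.4% of the 1999 genes called at 24 h deepened, 9.3% reversed and 71.3% had no further call. The 640 became 332 without 24 h array 1 and 363 without 24 h array 3. The deepened genes numbered 221 without 24 h array 1. The late ones numbered 72 without 24 h array 1 or without 24 h array 3, 94 without 48 h array 1 and 109 without 48 h array 2, and the reversed ones 117 and 118 without 24 h array 1 and 48 h array 1.

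The 3 courses ended at different levels, which the sorting rules in part require. Deepened genes that rose had a median change of 0.45 in the first step and 0.37 in the second, so that they stood 0.83 above untreated cells; those that fell had medians of -0.31 and -0.34 and stood at -0.66. Late genes stood 0.25 above or 0.25 below untreated cells in the median, after median first steps of -0.15 and 0.13 that ran the other way. At 48 h 19 of the 58 and 38 of the 106 late genes were not called against untreated cells. Reversed genes came back near their start, with medians of -0.01 for those that rose again and 0.06 for those that fell again. Of these, 54 of 74 and 87 of 111 were not called against untreated cells at 48 h, which does not show that they had returned to that level. In 24 of the 247 deepened genes that rose, the later step was called smaller than the first, and in 2 of them it was called larger. FOS is 1 of those 2 (difference between the steps 0.52, adjusted p = 0.0041).

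**Figure D2:**
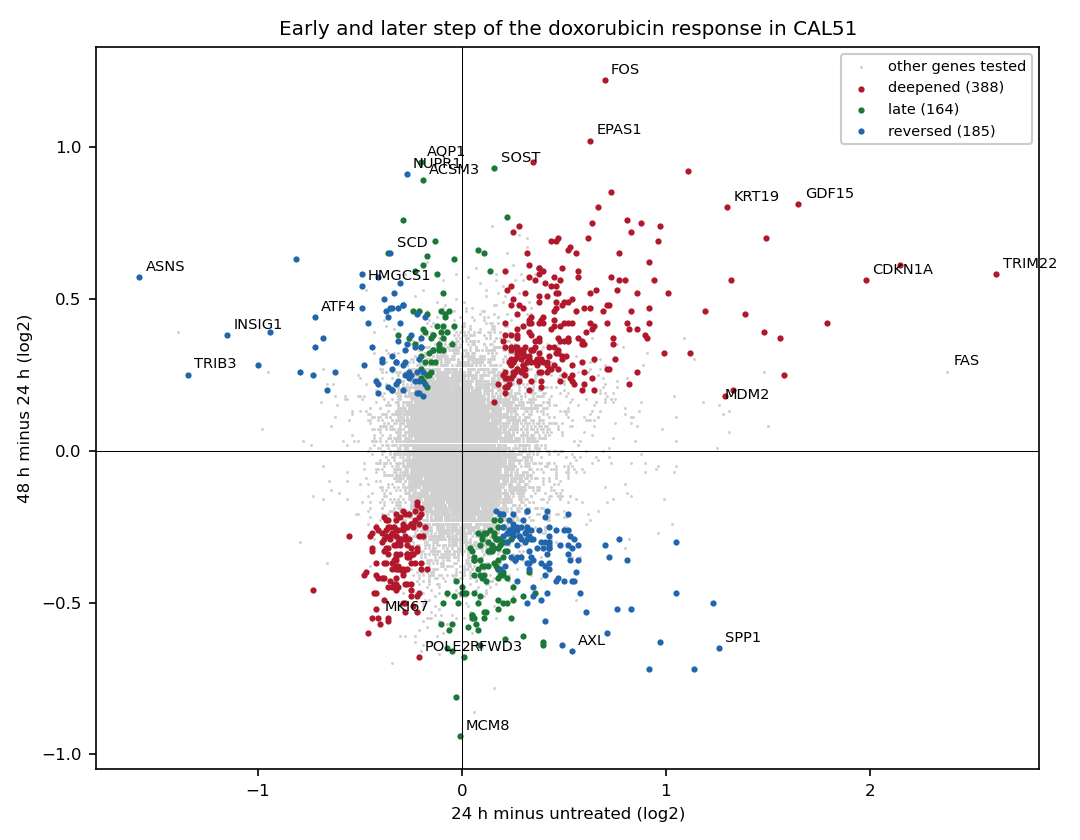
Each point is a gene, placed by its log2 difference between 24 h and untreated cells (horizontal) and between 48 h and 24 h (vertical); the colours mark 388 deepened, 164 late and 185 reversed genes and grey the rest of the 19775. The same 24 h arrays enter both axes with opposite signs; FOS lies highest at 1.22, TRIM22 farthest right at 2.62 and ASNS farthest left at -1.58.

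Targets of p53 went on rising, by less than in the first day. Of 22 tested targets of arrest, repair and feedback, 11 were higher and none lower at 48 h than at 24 h, with a median of 0.22 against 0.009 over all genes; in the first step 19 had risen, with a median of 1.04. CDKN1A, the p21 inhibitor, read 9.69, 9.61 and 9.64 untreated, 11.71, 11.45 and 11.71 at 24 h and 12.24, 12.13 and 12.19 at 48 h. The later step of 0.56 ± 0.07 (adjusted p = 0.00015) was smaller than the first of 1.98 (difference -1.41; adjusted p = 6.9e-06), and the same test called a smaller later step in 16 of the 22 genes. TP53INP1, a p53-induced autophagy and stress protein, rose by 0.70 ± 0.09 and the antiviral TRIM22 by 0.58 ± 0.08, after first steps of 1.49 and 2.62. GDF15 read 11.15, 10.99 and 11.21 and then 11.97, 11.86 and 11.95. MDM2, the ubiquitin ligase that limits p53, read 10.98, 10.80 and 11.12 and then 11.15, 11.04 and 11.18; these overlap, and the difference of 0.15 ± 0.09 was not called (adjusted p = 0.38). In the fit of every probe set, another MDM2 probe set was called lower (-0.41) and another higher (0.47). CCNG2, a cyclin linked to growth arrest, rose by 0.71 ± 0.13 after a first step of 0.28 that was not called (adjusted p = 0.23). The 11 became 7 without 24 h array 1 and 6 without 48 h array 1.

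Death genes were called in both directions. Of 22 death receptors and BCL2 family genes 11 had risen at 24 h; from 24 h to 48 h, 3 rose and 1 fell, where 9.71% of all genes were called. BIK, a BH3-only promoter of death, rose by 0.43 ± 0.07, the desmosomal p53 target PERP by 0.26 ± 0.08 and the survival gene MCL1 by 0.28 ± 0.07, while the receptor TNFRSF10A turned from 0.38 to -0.26 ± 0.07. FAS, the death receptor with the largest first step of the list (2.38), read 9.11, 9.26 and 9.11 at 24 h and 9.31, 9.44 and 9.52 at 48 h, which did not overlap but were not called (0.26 ± 0.12; adjusted p = 0.19). In the fit of every probe set, other FAS probe sets were called higher (0.35 and 0.25), and others were not called (0.20 and 0.17). Without 24 h array 2, 48 h array 1 or 48 h array 3, 1 member was called higher, and the call of TNFRSF10A was lost without 24 h array 2, 24 h array 3, 48 h array 1 or 48 h array 2.

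Mitotic genes fell together and further. Among 24 G2/M kinases, cyclins and regulators 16 fell and none rose (median -0.30; 8 had fallen at 24 h, median -0.16). MKI67, the Ki-67 proliferation antigen, read 10.98, 10.97 and 11.07 untreated, 10.58, 10.55 and 10.66 at 24 h and 10.10, 9.99 and 10.06 at 48 h, with each group below the one before (-0.55 ± 0.06; adjusted p = 3.5e-05). CCNA2, cyclin A2, fell by 0.53 ± 0.07 and CDK1, its mitotic kinase, by 0.44 ± 0.09. TOP2A, the topoisomerase that doxorubicin traps, fell by 0.35 ± 0.08. UBE2C, the ubiquitin-conjugating enzyme of the anaphase-promoting complex, was late: 10.90, 10.97 and 10.92 untreated, 11.12, 11.12 and 11.09 at 24 h and 10.74, 10.56 and 10.56 at 48 h, so that only the last group lay low. Of 29 kinetochore and checkpoint genes 21 fell (median -0.37; 14 and -0.22 in the first step). SPC25 and NUF2, which hold microtubules in the NDC80 complex, fell by 0.60 ± 0.09 and 0.56 ± 0.11, and CENPK and CENPU of the inner kinetochore by 0.61 ± 0.09 and 0.53 ± 0.07. Of 26 kinesins and spindle genes 21 fell (median -0.34, with 11 and -0.20 in the first step). They were led by the motors KIF18A (-0.63 ± 0.12), KIF14 (-0.49 ± 0.11) and KIF20B (-0.47 ± 0.09), which had no call at 24 h. TACC3, a spindle stabilizer, fell by 0.57 ± 0.07. It was late in the full set and in 1 of 9 fits that left out an array. Without 24 h array 3 the count of 21 kinesin and spindle genes fell to 13.

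Promoters of these genes were read from RefSeq (GRCh38.p14; 250 bases before to 50 after the start, known for 15384 of the tested genes) and searched on both strands. The cell cycle homology region TTTGAA, which DREAM binds through LIN54, stood in 78.3% of the 23 kinesin and spindle promoters, 55.6% of the 18 G2/M promoters and 50.0% of the 24 kinetochore promoters, against 11.9% of all. CCAAT, the NF-Y box, stood in 73.9%, 83.3% and 66.7% of them, against 36.1% of all. MKI67 shows both close to its start, and is printed because its promoter holds 2 of each; TTTGAA and the reverse of CCAAT are in capitals, and 1 pair overlaps by 1 base (chr10:128126404-128126553, minus strand, 130 bases before to 20 after the start):
MKI67: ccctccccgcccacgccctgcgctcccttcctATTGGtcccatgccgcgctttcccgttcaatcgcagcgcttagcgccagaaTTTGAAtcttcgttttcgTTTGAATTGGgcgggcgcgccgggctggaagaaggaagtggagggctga
A match is a description of these letters, and binding was not measured.

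DNA replication genes also fell. Of 22 genes of origin licensing and the helicase 17 fell (median -0.37; 10 and -0.24 in the first step). MCM10, which helps to start the helicase, read 9.69, 9.42 and 9.70 at 24 h and 8.96, 8.89 and 9.03 at 48 h, without overlap. ORC1, of the complex that marks origins, read 8.29, 8.29 and 8.45 and then 7.74, 7.72 and 7.91, also without overlap. DBF4, the activator of the CDC7 kinase, and GINS1 fell by 0.55 ± 0.13 and 0.50 ± 0.06. The call of DBF4 was lost without 24 h array 3, 48 h array 1 or 48 h array 2. Of 22 polymerase, clamp and loader genes 16 fell (median -0.33), among them FEN1, the flap nuclease (-0.44 ± 0.09), RFC3 of the clamp loader (-0.44 ± 0.07) and POLA1 of polymerase alpha (-0.42 ± 0.07). PCNA, the sliding clamp and itself a p53 target, was the one reversed member, up by 0.25 and then down by 0.24 ± 0.06. Of 18 homologous recombination and Fanconi genes 13 fell (median -0.31), led by RAD51AP1 (-0.52 ± 0.12) and FANCI (-0.49 ± 0.07), while RAD51C had risen by 0.32 before it fell by 0.20 ± 0.05. The call of RAD51AP1 was lost without 24 h array 1, 24 h array 3, 48 h array 1 or 48 h array 2.

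Calls among regulators of the G1/S switch were mostly downward. Of 23 tested, 8 fell and 1 rose (median -0.20). UHRF1, which carries DNA methylation through replication, read 11.12, 11.07 and 11.03 untreated, 10.72, 10.58 and 10.71 at 24 h and 10.07, 10.05 and 10.17 at 48 h (-0.57 ± 0.06; adjusted p = 5e-05). E2F8, a repressor of E2F genes, fell by 0.55 ± 0.08 and RBL1, which encodes p107, by 0.67 ± 0.17. The call of RBL1 was lost without 24 h array 1, 24 h array 3, 48 h array 1 or 48 h array 2. CCND1, cyclin D1, was the member that rose, from 11.33, 10.91 and 11.51 to 11.70, 11.55 and 11.85 (0.45 ± 0.11; adjusted p = 0.019, lost without 48 h array 1 or 48 h array 3). The E2F core TTCCCGC stood in 62.5% of 16 recombination promoters, 50.0% of 18 polymerase promoters and 36.8% of 19 licensing and helicase promoters, against 8.7% of all. This core was not found in the promoter of RBL1. UHRF1 holds it in both orientations, in capitals, 104 to 98 and 14 to 8 bases before its start (chr19:4909371-4909520, plus strand):
UHRF1: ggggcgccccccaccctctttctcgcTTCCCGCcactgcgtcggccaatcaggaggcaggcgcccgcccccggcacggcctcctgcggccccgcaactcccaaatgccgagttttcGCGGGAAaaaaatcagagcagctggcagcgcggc

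Ribosome biogenesis genes fell in the second step. None of 22 was called at 24 h (median 0.04), and 14 were lower at 48 h than at 24 h, with none higher (median -0.28); with 1 array left out, 11 to 14 were lower. LYAR, a nucleolar factor of rRNA processing, read 10.36, 10.47 and 10.44 untreated, 10.49, 10.40 and 10.48 at 24 h and 9.93, 9.80 and 9.90 at 48 h. The first 2 groups overlapped and the third lay below both (-0.58 ± 0.06; adjusted p = 4.1e-05; difference between the steps -0.61, adjusted p = 0.0032). UTP20, of the small-subunit processome, fell by 0.57 ± 0.07 and POLR1A, the largest subunit of RNA polymerase I, by 0.41 ± 0.07. LYAR and UTP20 were late in all 9 fits that left out 1 array. For the other 11 lower members the difference between the steps was not called. NOP58 and NOP14 fell by 0.34 ± 0.07 and 0.33 ± 0.09. MYC, the factor that drives these genes in growing cells, read 10.43, 10.49 and 10.49 at 24 h and 10.62, 10.46 and 10.57 at 48 h, overlapping and not called (0.08 ± 0.06; adjusted p = 0.48). The E-box CACGTG, which MYC and its relatives bind, stood in 44.4% of the ribosome biogenesis promoters and 17.6% of those of the late genes that fell, against 8.9% of all. In UTP20 it lies 10 to 5 bases before the start (capitals; chr12:101279975-101280124, plus strand):
UTP20: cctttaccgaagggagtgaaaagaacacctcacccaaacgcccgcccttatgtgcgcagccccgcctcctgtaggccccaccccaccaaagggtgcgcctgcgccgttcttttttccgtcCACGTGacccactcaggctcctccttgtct

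Some immediate-early genes rose at both steps. Of 13 AP-1 genes 4 were higher, FOS, FOSB, JUNB and JUN, and 2 lower, and the median was 0.15. FOSB read 7.90, 7.73 and 7.96 and then 8.63, 8.56 and 8.61 (0.74 ± 0.08), JUNB 8.58, 8.83 and 8.87 and then 9.51, 9.31 and 9.47 (0.67 ± 0.08), and JUN 8.93, 8.67 and 8.86 and then 9.48, 9.39 and 9.29 (0.57 ± 0.08). In all 3 the later arrays lay above the earlier ones. FOSB and JUN kept the deepened class in 5 of 9 fits that left out an array, FOS and JUNB in all 9. MAFG and FOSL1 went the other way, rising by 0.41 and 1.05 and then falling by 0.41 ± 0.07 and 0.30 ± 0.07. Of 21 EGR, DUSP, IER and SPRY genes 8 rose and 1 fell, 5 of them after a rise at 24 h. The zinc finger factors EGR1 and EGR3 rose by 0.54 ± 0.07 and 0.72 ± 0.14, and DUSP1 and DUSP5, phosphatases that switch off MAP kinases, by 0.65 ± 0.06 and 0.40 ± 0.06. SPRED2, an inhibitor of RAS signalling, was the one to fall (-0.39 ± 0.07); 2 of the list fell without untreated array 2. In the AP-1 list 1 gene fell without 24 h array 1, 48 h array 1 or 48 h array 3. The CArG box, which serum response factor binds, was found in 1.2% of all promoters. It was not found in the promoters of DUSP1 and IER5. EGR1 holds 2, in capitals, 105 to 96 and 83 to 74 bases before its start (chr5:138465349-138465498, plus strand):
EGR1: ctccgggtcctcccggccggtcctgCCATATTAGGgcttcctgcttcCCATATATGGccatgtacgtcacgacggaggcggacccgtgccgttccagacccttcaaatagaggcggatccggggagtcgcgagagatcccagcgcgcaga

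Part of the amino acid response turned upward after 24 h. At 24 h 18 of 28 ATF4 target and related genes had fallen and none had risen (median -0.48); from 24 h to 48 h 9 rose and 1 fell (median 0.20), and 7 of the 9 were reversals. Against untreated cells 18 of the 28 were lower at 48 h (median -0.40) and 2 were higher. The difference between the steps was called in 19 of the 28, each time with the later step higher. ASNS, asparagine synthetase, read 10.97, 11.17 and 11.02 untreated, 9.42, 9.57 and 9.44 at 24 h and 10.05, 10.03 and 10.07 at 48 h. It regained 0.57 ± 0.07 of the 1.58 lost (adjusted p = 0.00011), with no overlap between any groups, and stayed below untreated cells (adjusted p = 3.4e-08). ATF4 itself, the factor of this response, fell by 0.72 and then rose by 0.44 ± 0.06. CTH, which makes cysteine, rose by 0.65 ± 0.12 and DDIT4, an inhibitor of mTORC1, by 0.59 ± 0.07; both were late, DDIT4 in 1 of 9 fits that left out an array. SLC7A11, the cystine importer, fell again, by 0.25 ± 0.07, a call lost without 24 h array 1, 24 h array 3 or any 48 h array. Among 15 cytosolic tRNA synthetase and tRNA export genes 11 had fallen at 24 h, and 5 then rose, all of them reversals: CARS1 (0.34 ± 0.06), YARS1 (0.26 ± 0.06), AARS1 (0.25 ± 0.06), WARS1 (0.24 ± 0.06) and SARS1 (0.20 ± 0.05). CARS1, which charges cysteine tRNA, read 11.05, 10.98 and 11.07, then 10.32, 10.27 and 10.35, then 10.75, 10.58 and 10.64. At 48 h 11 of the 15 were lower than in untreated cells (median -0.29, against -0.33 at 24 h). The count of 5 that rose became 2 without 24 h array 1 or 48 h array 1.

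NUPR1 passed its starting level. This stress-induced chromatin protein gene read 8.49, 8.54 and 8.57 untreated, 8.42, 8.22 and 8.14 at 24 h and 9.33, 9.13 and 9.06 at 48 h, so that every 24 h array lay below and every 48 h array above the untreated ones. The first step of -0.27 (adjusted p = 0.035) was close to the threshold, and its class held in 4 of 9 fits that left out an array; the later step of 0.91 ± 0.08 was called in all 9.

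The C/EBP-ATF response element TGATGNAA, which ATF4 binds with C/EBP partners, stood in 41.7% of the tRNA synthetase promoters and 18.2% of the ATF4 list's, against 2.6% of all. The promoters of ASNS (chr7:97872389-97872538, minus strand) and CARS1 (chr11:3057404-3057553, minus strand) are printed to show it, in capitals, 68 to 61 bases before the start of ASNS and across the start of CARS1 in the reverse orientation:
ASNS: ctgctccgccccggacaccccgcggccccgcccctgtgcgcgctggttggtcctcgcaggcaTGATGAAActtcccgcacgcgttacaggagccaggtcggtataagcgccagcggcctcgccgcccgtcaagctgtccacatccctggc
CARS1: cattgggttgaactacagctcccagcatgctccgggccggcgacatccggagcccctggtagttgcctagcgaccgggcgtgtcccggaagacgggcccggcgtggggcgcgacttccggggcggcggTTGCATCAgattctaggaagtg

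**Figure D3:**
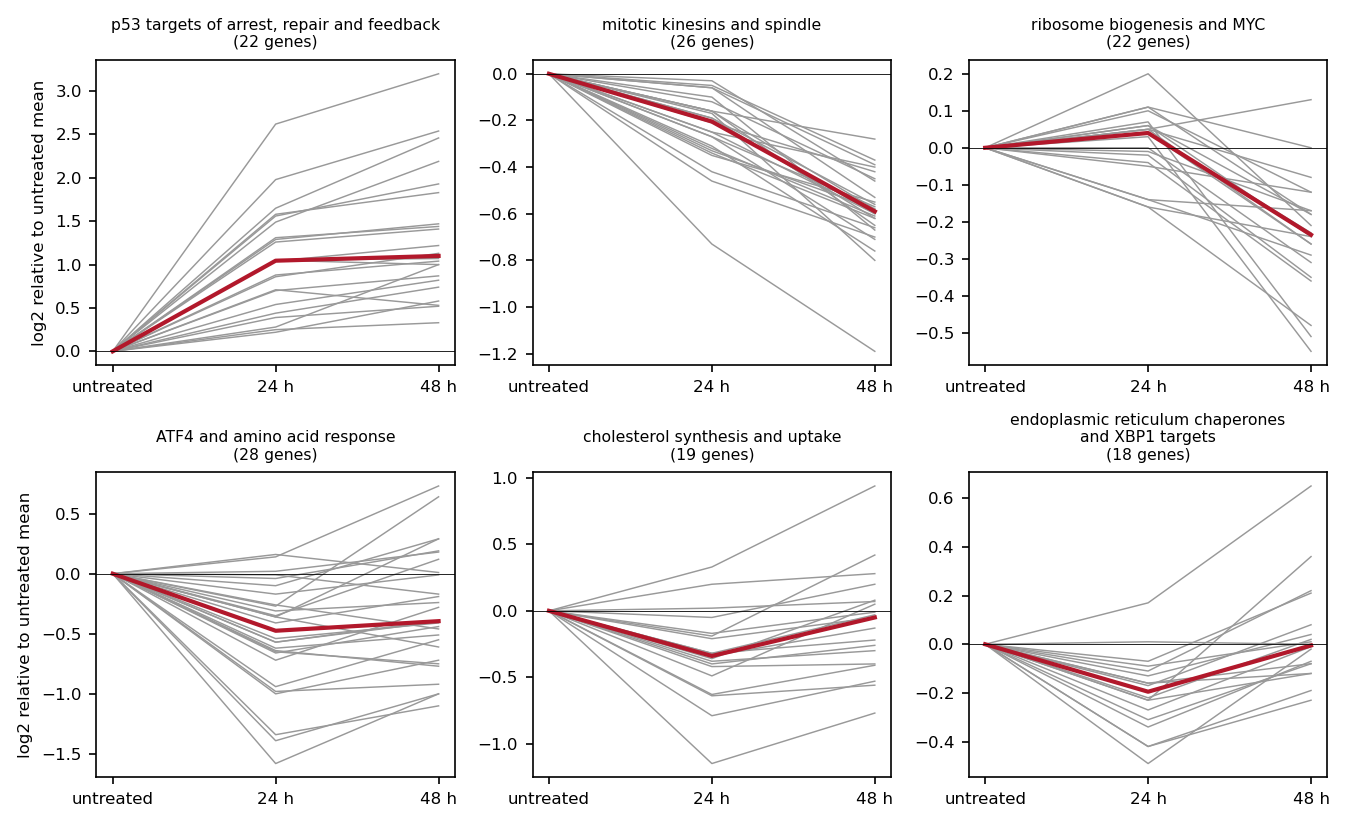
Group means of every tested member of 6 lists at untreated, 24 h and 48 h, as log2 relative to the untreated mean (grey, 1 line a gene), with the list's median in red; the vertical axes differ between panels. By the medians, the p53 targets rose most before 24 h and the spindle genes fell at both steps. The medians of the ribosome biogenesis genes fell after 24 h, and those of the lower row dipped at 24 h.

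Sterol genes rose in part from a lower level. Of 19 genes of cholesterol synthesis and uptake 12 had fallen at 24 h (median -0.34). From 24 h to 48 h 7 of the 19 were called higher, 5 of them as reversals, and none lower (median 0.21). The later step was called higher than the first in 10. Against untreated cells 8 of the 19 were lower at 48 h and 3 were higher (median -0.05). HMGCS1, which makes HMG-CoA, read 9.57, 9.57 and 9.52 untreated, 9.01, 9.10 and 9.08 at 24 h and 9.66, 9.62 and 9.54 at 48 h. Its last values lay among and above the untreated ones (0.54 ± 0.05; adjusted p = 2.3e-05; 0.05 against untreated, adjusted p = 0.54). MSMO1 (0.44 ± 0.09), IDI1 (0.29 ± 0.06), DHCR7 (0.26 ± 0.06) and INSIG1 (0.38 ± 0.11) were the other reversals. INSIG1, the retainer of SREBP in the endoplasmic reticulum, stayed 0.77 lower than in untreated cells, and its later call was lost in 7 of 9 fits that left out an array. STARD4, a carrier of sterols, was late (0.61 ± 0.10), and TM7SF2, a sterol reductase, deepened (0.61 ± 0.07). In fatty acid synthesis, where 7 of 12 had fallen, SCD, the desaturase, went from 11.73, 11.70 and 11.83 to 12.38, 12.37 and 12.45 (0.65 ± 0.06), above its untreated 12.08, 12.05 and 12.16. ACSS2 rose by 0.18 ± 0.05, and FASN, fatty acid synthase, fell at both steps (-0.44 and -0.27 ± 0.08). The later call of FASN was lost without 24 h array 1, 24 h array 3 or any 48 h array, and 1 member rose without untreated array 2, 24 h array 1, 48 h array 1 or 48 h array 2. The sterol element core CACCCCA stood in 23.5% of the cholesterol promoters against 7.9% of all.

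Calls were upward among chaperones of the endoplasmic reticulum and mostly downward among heat shock genes. Of 18 endoplasmic reticulum chaperones and XBP1 targets 9 had fallen at 24 h (median -0.19); 8 then rose and none fell (median 0.23), 4 as reversals and 3 late, and without 48 h array 3 the 8 became 5. HERPUD1, of the degradation complex, rose by 0.59 ± 0.12 and SDF2L1, a chaperone partner, by 0.47 ± 0.08 after a fall of 0.49. XBP1, the factor that raises such genes, read 10.61, 10.49 and 10.53 untreated, 10.77, 10.64 and 10.73 at 24 h and 11.21, 11.08 and 11.29 at 48 h; the last group lay above both others (0.48 ± 0.07; adjusted p = 0.00033). The endoplasmic reticulum stress element stood in 35.3% of the list's promoters against 0.1% of all, and CCAAT, which is part of it, in 94.1%. In XBP1 it lies 52 to 34 bases before the start (capitals; chr22:28800550-28800699, minus strand):
XBP1: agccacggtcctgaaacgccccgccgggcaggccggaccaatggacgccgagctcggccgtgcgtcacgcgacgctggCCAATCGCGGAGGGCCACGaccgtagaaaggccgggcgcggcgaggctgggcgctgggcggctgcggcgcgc
Of 15 heat shock genes 5 fell and 1 rose (median -0.17), and 3 fell without 24 h array 3, 48 h array 1 or 48 h array 2. CHORDC1, an HSP90 cochaperone, read 11.28, 11.21 and 11.40 and then 10.74, 10.69 and 10.82 (-0.55 ± 0.08), and HSPH1, an HSP110 exchange factor, fell by 0.38 ± 0.07; CRYAB, a small heat shock protein, rose by 0.39 ± 0.10, a call lost without 24 h array 1 or 48 h array 3.

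The calls among epithelial genes were upward. Over all genes 4.37% were called higher and 5.34% lower. Of 14 keratins 4 were higher and none lower: KRT19, from 7.87, 7.80 and 7.99 to 8.67, 8.58 and 8.80, with KRT4 (0.39 ± 0.08), KRT8 (0.36 ± 0.06) and KRT18 (0.27 ± 0.05). Of 24 cadherin and junction genes 7 rose and none fell (median 0.17 after -0.01 in the first step). CDH1, E-cadherin, read 7.27, 7.35 and 7.39 untreated, 8.07, 7.61 and 8.34 at 24 h and 8.66, 8.78 and 8.98 at 48 h. The 24 h arrays were the widest group, and the later step was 0.80 ± 0.15 (adjusted p = 0.0034 by limma). The tight junction gene CLDN4 rose by 0.44 ± 0.09 and ELF3, an epithelial transcription factor, by 0.40 ± 0.09. Mesenchymal genes were mixed, with 4 of 19 lower and 2 higher. AXL read 7.89, 8.24 and 8.02, then 8.63, 8.55 and 8.60, then 7.87, 7.90 and 8.03: the first rise was undone (-0.12 against untreated; adjusted p = 0.36). VIM, vimentin, turned from 0.52 to -0.34 ± 0.07 and TAGLN, transgelin, from 0.31 to -0.27 ± 0.06. LOX, a collagen cross-linker, fell by 0.47 ± 0.09 with no call before. FN1, fibronectin, turned upward, 11.44, 11.28 and 11.40 untreated, 11.07, 11.03 and 11.12 at 24 h and 11.64, 11.60 and 11.62 at 48 h, and S100A4 rose again (0.35 ± 0.05). Of 25 matrix and integrin genes 4 rose and none fell, SPARC most (0.42 ± 0.07).

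All calls among inflammatory and antigen presentation genes were upward; over all genes 4.37% were called higher. Of 16 NF-κB genes 3 rose, among them the inhibitor NFKBIA (0.36 ± 0.06). Of 23 secreted factors 3 rose, CXCL2, IL18 (0.52 ± 0.14) and IGFBP7 (0.47 ± 0.06). The call of IL18 was lost without 24 h array 1, 24 h array 2, 48 h array 2 or 48 h array 3. CXCL2 read 6.73, 6.45 and 6.85, then 7.36, 7.43 and 7.43, then 8.18, 8.10 and 8.48, each group above the one before. IL6 and CXCL8, cytokines of the senescence secretome, differed by 0.14 ± 0.06 and 0.15 ± 0.11 and were not called. Of 27 interferon-stimulated genes 4 rose, IFITM2 (0.42 ± 0.06), ISG15 (0.36 ± 0.06), PARP9 (0.33 ± 0.06) and IFITM3 (0.28 ± 0.06); the IFITM pair has near-identical sequence, so their probe sets may share signal. Of 15 class I antigen processing genes 4 rose (median 0.21), including TAP1, the peptide transporter (0.32 ± 0.06), and HLA-C (0.34 ± 0.05), and 2 rose without 24 h array 1, 48 h array 1 or 48 h array 2.

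The redox genes split. Of 24 genes 6 rose and 8 fell, where 4.37% of all genes were called higher and 5.34% lower. Those that fell include NQO1, a quinone reductase and NRF2 target, which read 12.26, 12.44 and 12.32 untreated, 12.41, 12.37 and 12.42 at 24 h and 11.93, 11.89 and 11.95 at 48 h: only the last group was low (-0.47 ± 0.06; adjusted p = 0.00011; late in all 9 fits that left out an array). GCLM, of glutathione synthesis, fell by 0.37 ± 0.08 and MGST1 by 0.32 ± 0.07. GSTT1, a glutathione transferase, rose by 0.44 ± 0.07 and GPX1, the cytosolic glutathione peroxidase, by 0.35 ± 0.06. The 8 lower genes became 5 without 24 h array 3 or 48 h array 2. Of 8 metallothioneins 1 was called, MT1M (-0.55 ± 0.10). That count lies near the 9.71% called over all genes and is not a result about the list. Replication-dependent histones, whose messages normally lack poly(A) tails, gave 5 higher of 19, all deepened: H2AC6 (0.69 ± 0.12), H1-2 (0.53 ± 0.10), H2BC4 (0.49 ± 0.11), H2BC12 (0.46 ± 0.05) and H2BC21 (0.42 ± 0.11). Near-identical copies of these genes could share probes, and 3 were called without 24 h array 1.

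Metabolic, clock and growth-factor lists held 1 to 6 called members each, where 9.71% of all genes were called. Several counts lie near that share, such as 2 of 22 oxidative phosphorylation subunits and 2 of 21 YAP, Notch and Wnt targets. Such counts are not a result about the list. In 27 glycolysis and hypoxia genes 5 rose, EPAS1 first, then BNIP3L (0.45 ± 0.05), a mitophagy receptor, SLC2A1 (0.42 ± 0.06), the glucose transporter, NDRG1 (0.39 ± 0.07) and VEGFA (0.39 ± 0.08), while HK2, a hexokinase, fell (-0.30 ± 0.09) and the list's median was 0.01. Of 20 FOXO-linked genes 4 rose, CCNG2, SESN3 (0.58 ± 0.14), CITED2 (0.35 ± 0.10) and FOXO3 (0.19 ± 0.06), and 2 rose without 24 h array 1, 48 h array 1 or 48 h array 3. Of 14 clock genes 4 rose: BHLHE40 (0.55 ± 0.09), BMAL1 (0.39 ± 0.08) and, as reversals, DBP (0.46 ± 0.07) and TEF (0.29 ± 0.07). Of 22 lysosome and autophagy genes 4 rose, most GABARAPL1 (0.59 ± 0.13), an autophagosome protein, and 1 fell, NPC1 (-0.25 ± 0.07); the 4 became 2 without 24 h array 1 and 1 without 48 h array 1. ANKRD1 (0.37 ± 0.08) and SOX4 (0.40 ± 0.07) were the 2 of 21 YAP, Notch and Wnt targets to rise, and KLF10 (0.60 ± 0.14) the 1 of 14 Krüppel-like and ID factors. SKIL fell (-0.42 ± 0.09) and TGFB1 rose (0.25 ± 0.07) among 19 TGF-β genes, and ERBB3 rose (0.33 ± 0.06) among 12 EGFR family genes. Of 22 oxidative phosphorylation subunits SDHC and UQCRC1 rose, by 0.19 ± 0.06 and 0.20 ± 0.06. ABCA1, a cholesterol exporter, was the one call in 16 ABC transporter genes (0.36 ± 0.11). The calls of HK2, NPC1, TGFB1 and ABCA1 were each lost without 48 h array 1 and without at least 2 other arrays, and no oxidative phosphorylation gene was called without any one 24 h array, 48 h array 1 or 48 h array 3. In the EGFR family 2 genes rose and 1 fell without 24 h array 3. ABCB1, the efflux pump for doxorubicin, read 5.64, 5.95 and 5.66 at 24 h and 5.74, 5.65 and 5.77 at 48 h, which overlap (-0.03 ± 0.09; adjusted p = 0.9). None of 8 endothelial markers was called.

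**Figure D4:**
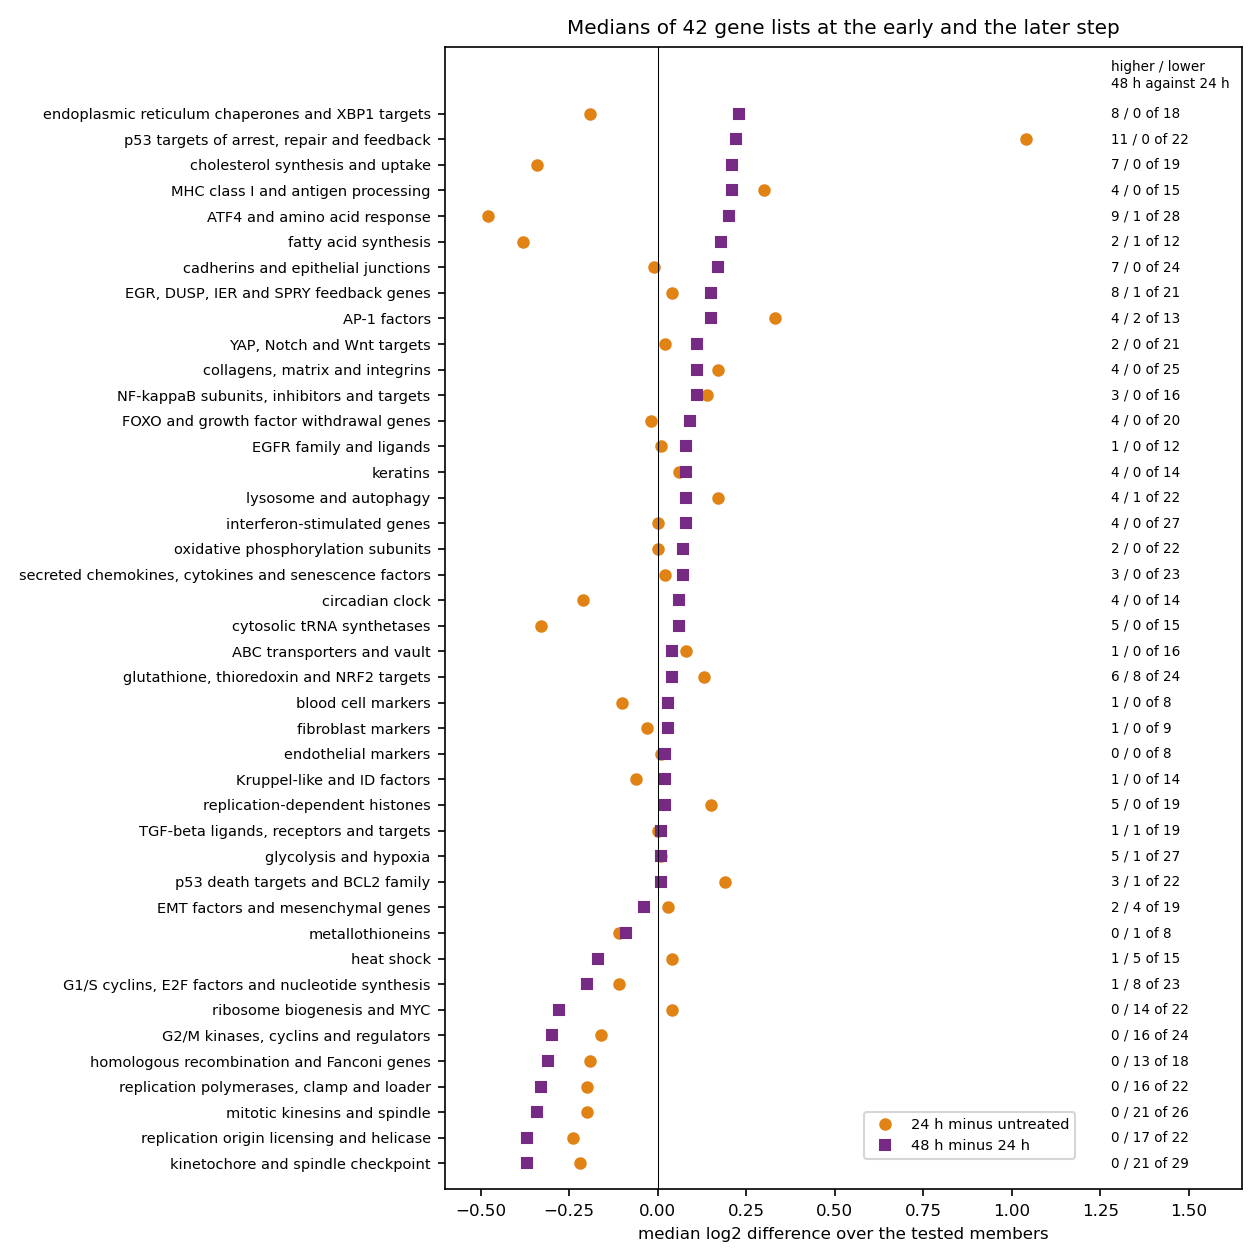
Median log2 difference over the tested members of each of 42 gene lists, for 24 h against untreated (circles) and 48 h against 24 h (squares), with the number of members called higher and lower from 24 h to 48 h at the right. The lists of the kinetochore, licensing, spindle, polymerase, recombination, G2/M and ribosome genes lie lowest at 48 h against 24 h, from -0.37 to -0.28, and the endoplasmic reticulum list highest, at 0.23.

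Late genes outside the lists included enzymes, secreted proteins and membrane proteins. ALDH1A1, a retinaldehyde dehydrogenase, read 10.98, 10.88 and 10.97 untreated, 10.76, 10.78 and 10.90 at 24 h and 11.58, 11.43 and 11.48 at 48 h, high only in the last group (0.69 ± 0.06; adjusted p = 7.6e-06), and it was late in all 9 fits that left out an array, as were AQP1, ACSM3 and SMIM14 (0.66 ± 0.07). PRAP1 rose by 0.77 ± 0.07, GDPD1 by 0.76 ± 0.10 and CILP by 0.65 ± 0.08. SOST kept the late class in 3 of 9 such fits and CILP in 2. Downward, CHRNA5, a nicotinic receptor subunit, read 7.39, 7.47 and 7.42 and then 6.73, 6.86 and 6.75 (-0.65 ± 0.07), and CD109, a membrane protein that binds TGF-β, fell by 0.64 ± 0.10. The pseudogene transcript DUXAP10 fell by 0.64 ± 0.14 and the neuropeptide galanin (GAL) by 0.63 ± 0.14. MCM8, DLEU2, DUXAP10 and CD109 kept the late class in 3 of 9 fits, GAL in 2, CHRNA5 in 6, RFWD3 in 7 and CIP2A in 8.

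Some of the largest reversals likewise stood outside the lists. NTS, the neuropeptide neurotensin, read 10.59, 10.56 and 10.50 untreated, 9.74, 9.75 and 9.74 at 24 h and 10.35, 10.37 and 10.39 at 48 h, a dip and a partial return (0.63 ± 0.08; adjusted p = 2e-04). TMEM135, a peroxisomal membrane protein, and the noncoding LINC00645 turned upward by 0.57 ± 0.10 and 0.58 ± 0.10. SPP1, osteopontin, read 7.53, 7.17 and 7.44, then 8.72, 8.53 and 8.67, then 7.91, 8.05 and 8.01: it lost 0.65 ± 0.09 of its rise of 1.26 and stayed 0.61 above untreated cells. SAC3D1 (-0.64 ± 0.08), the noncoding FTX (-0.63 ± 0.08), EID3 (-0.60 ± 0.16) and the splicing regulator SFSWAP (-0.56 ± 0.08) followed it downward after first steps of 0.49, 0.97, 0.71 and 0.41. The later call of EID3 was lost without 24 h array 1, 24 h array 3, 48 h array 1 or 48 h array 2. Another FTX probe set, as bright (mean 6.66), differed by -0.18 and was not called.

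Of the 111 genes that rose and then fell, 20 (18.02%) were not protein-coding by RefSeq, close to the 16.29% of all genes; the other classes had 0% to 6.90%. Probe sets without a symbol in the annotation were called less often between the times than all probe sets, 3.88% against 6.51%. At 24 h 689 of them were higher and 130 lower, and from 24 h to 48 h 84 were higher and 371 lower, of 11721. Of all 54613 probe sets, 4420 were called at 24 h in either direction. Of the 371, 229 had been called higher at 24 h. The share of calls that were lower was 81.5% there and 63.4% among single-symbol probe sets. Calls of genes varied with the mean level over the 15 arrays. Lower calls ran from 0.66% in the dimmest to 11.91% in the brightest of 5 equal groups, and higher calls from 0.83% to 8.82%. They varied less with the span of the gene in RefSeq. Lower calls made up 2.68% of the genes of the shortest span, 4.89%, 7.22% and 7.55% in the next 3 of 5 equal groups and 4.36% in the group of the longest, while higher calls stayed at 4.31% to 4.46%. What these transcripts share was not tested.

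**Figure D5:**
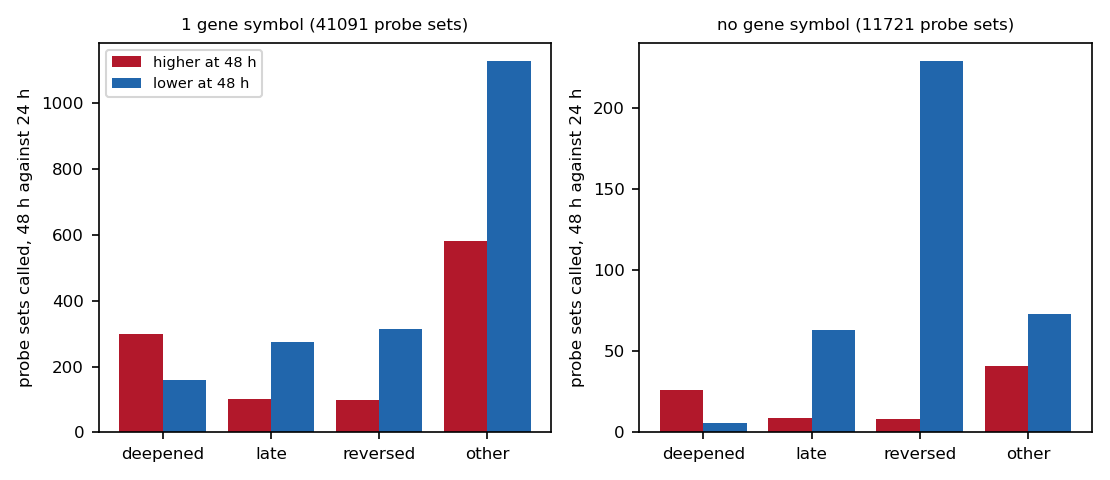
Number of probe sets called higher or lower at 48 h against 24 h in each course, for probe sets with 1 gene symbol (left) and with none (right); the vertical scales differ. Among those without a symbol the tallest bar is 229 probe sets that had risen at 24 h and fell by 48 h.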

How the data were processed

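RNA of 15 cultures was extracted with RNeasy columns and hybridized as biotin-labelled cRNA to Affymetrix U133 Plus 2 arrays, per the labels' protocols. The authors deposited 1 table of RMA values, per the submitters' processing notes, and none of the sources used here names a software version. Values in the deposited table ran from 3.083 to 14.762 and were taken as log2 intensities from that range; the scanner files were not used here. RMA equalizes the arrays, so a shift shared by all transcripts cannot be seen.

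Of 54675 probe sets, 41091 had 1 gene symbol in the platform annotation and were no controls. The brightest by its mean over all 15 arrays stood for its gene, giving 19775 genes. Models with 5 group means over 15 arrays (10 residual degrees of freedom) were fitted with limma 3.58.1 in R 4.3.3. Moderated tests of 4 contrasts were adjusted by Benjamini-Hochberg over all genes at 0.05. The steps were tested on simulated data. The number of arrays, 3 a group, limits the precision, and levels of different probe sets were not compared. RefSeq promoters were searched for 9 motifs in 300-base windows and are printed as 150 bases.

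Named genes were the 12 highest and 12 lowest called genes whose arrays did not overlap, the 8 largest per course and direction, the 5 members with the largest change in each of 42 lists, and a fixed set of 11. The members and lists were chosen with earlier results of these data known. PCNA, RAD51C, FOSL1, SPRED2, ATF4, SLC7A11, IDI1, DHCR7, ACSS2, TAGLN, IL6, CXCL8, HK2, FOXO3 and the genes that crossed their untreated level were named after their values were seen. Of 862 listed genes, 72 were not analysed here. The alternatives were other sets of arrays, normalizations, weights, filters, probe set rules and each CAL51 array left out.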

Additional observations from a re-analysis of the deposited data

Results flagged for a closer look

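In 8 genes the arrays at 24 h and at 48 h were called in opposite directions against untreated cells, so that the genes passed their starting level. NUPR1 (0.91 from 24 h to 48 h), SCD (0.65), FN1 (0.55), TMEM187 (0.45), MXRA8 (0.44) and NHSL1 (0.37) were lower at 24 h and higher at 48 h. AFG3L1P (-0.39) and PDCD11 (-0.38), a factor of rRNA processing, were higher at 24 h and lower at 48 h. The count depends on the arrays: with 1 array left out, 2 (without untreated array 2 or untreated array 3) to 5 (without 24 h array 2) of the 8 kept both calls, and 2 did with the 9 CAL51 arrays alone.

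Outside the named genes, 371 probe sets without a gene symbol were called lower at 48 h than at 24 h, against 84 higher. Together these were 3.88% of the 11721 such probe sets, where 6.51% of all probe sets were called. They were not part of the gene counts, and what they measure was not tested.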

How the results depend on the processing

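From the 9 CAL51 arrays alone, 1075 genes changed between 24 h and 48 h, 1154 changed at 24 h, 263 had unlike steps, 204 deepened, 44 were late and 87 reversed; from the 6 arrays compared, 565 changed. With the array SD as a covariate these were 2978, 3099, 1346, 692, 403 and 396. Array weights, whose estimate did not fully converge, gave 3200 genes at 24 h, 1721 unlike steps, 518 late and 365 reversed genes. Repeated quantile normalization gave 970 unlike steps and 282 late genes, with 52.4% of the calls between the times higher against 45.0%. An intensity trend gave 260 late genes. With every probe set on its own, 3557 changed between the times (34.5% higher), 4420 at 24 h and 7930 at 48 h against untreated cells, with 2204 unlike steps, 460 late and 681 reversed. Against a fold of 1.2, 57 genes passed, 39 higher and 18 lower. The mean of its probe sets turned SARS1 to -0.01 (adjusted p = 0.94 by limma). The cause of these moves was not tested.

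With 1 array left out, 1236 to 1951 genes changed between the times, 1355 to 2117 at 24 h and 3507 to 4754 at 48 h against untreated cells; 221 to 348 deepened, 72 to 212 were late, 117 to 208 reversed and 332 to 676 had unlike steps. Of 184 called named genes, 147 were called in each of these 9 fits. The others are not all marked above. Same-numbered arrays paired in part: deviations at 24 h and 48 h correlated at 0.06, 0.40 and 0.46, against -0.41 to 0.07 for unlike numbers. For untreated and 24 h, same numbers gave 0.23, 0.37 and -0.13 and unlike numbers -0.46 to 0.41. The labels state no pairing. With the replicate block 1759 genes changed, and 1696 of the 1920 were among them.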
